A study of Mus musculus with 9 samples.

Results

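miR-34a-5p was measured in mouse liver on 9 one-colour Agilent miRNA arrays, together with its paralogues miR-34b-5p and miR-34c-5p, which were looked at for detection only. In the files the names are mmu-miR-34a-5p, mmu-miR-34b-5p and mmu-miR-34c-5p, detected on 9, 0 and 0 arrays, and the prefix for mouse is left out below. These are 3 of the 1881 mouse miRNAs on the array, found by their names in the scanner files, where 2 probes read miR-34a-5p. miR-34a-5p was chosen by its measured intensities on these same arrays, where it stood highest in the comparison of high fat diet with control, so its values in that comparison are a description with no test. All mice were wild-type C57BL/6J males, an inbred laboratory strain, with livers taken at 20 weeks of age. The control group ate chow from 3 weeks of age for 17 weeks. The high fat diet group was fed chow of which fat supplied 45% of the energy for those 17 weeks and was gavaged with saline in the last 5. The metformin group ate that same fatty diet and was gavaged over those 5 weeks, from 15 weeks of age, with metformin, a glucose-lowering drug, at 3 mg per kg per day as the labels state it. The sources used here do not say whether control mice were gavaged. Each array held 1 pool of liver from 4 mice, and each group had 3 pools, so every spread and p-value below refers to pools and not to single animals.

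miR-34a is a short RNA made from its own gene, whose transcription is switched on by the tumour suppressor p53. Loaded into Argonaute, it binds messenger RNAs through its seed, the bases near its 5′ end, and lowers their output. Among its known targets is Sirt1, a deacetylase that in hepatocytes acts on regulators of fat oxidation and glucose output, and raised miR-34a is a known feature of obese and fatty livers. Neither p53 nor Sirt1 was measured by these arrays. In whole liver, a change in the number of cells that carry miR-34a and a change in the amount per cell cannot be told apart.

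The mature sequences are shown because the seed defines the family whose members might share targets and might be confused by a probe. They are from RefSeq (build GRCm38.p6), 5′ to 3′, with the seed, bases 2 to 8, in capitals. Of 9 names searched (the family and the opposite hairpin arms), 7 were matched, and miR-34c-5p and miR-449b are given by name only.
miR-34a-5p: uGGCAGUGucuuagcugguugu
miR-34b-5p: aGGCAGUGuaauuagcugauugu
miR-449a-5p: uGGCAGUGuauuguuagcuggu
miR-449c-5p: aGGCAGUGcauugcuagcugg
The seed GGCAGUG was held by 4 of the 1679 mature mouse miRNAs in that table (0.238%), the 4 shown here. Read from the 5′ end without gaps, miR-34b-5p had the same base as miR-34a-5p at 11 of 22 positions, miR-449a-5p at 15 of 22 and miR-449c-5p at 12 of 21. A count with gaps was not made. miR-34b-5p has 23 bases against 22 in miR-34a-5p, and all the relatives shown share a further stretch with miR-34a-5p at shifted positions. The count without gaps can therefore understate the likeness that a probe meets, also for the miR-449 members. The match to miR-34a-5p ran from base 2 to base 9 in miR-34b-5p, from base 1 to base 9 in miR-449a-5p and from base 2 to base 8 in miR-449c-5p.

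The miR-34a-5p sequence lies on the + strand at chr4:150068473-150068494 in that build. It is the 5′ arm of a hairpin of 102 bases, shown to place the mature strand (in capitals, bases 20 to 41) and the opposite arm miR-34a-3p (bases 64 to 84).
Mir34a hairpin: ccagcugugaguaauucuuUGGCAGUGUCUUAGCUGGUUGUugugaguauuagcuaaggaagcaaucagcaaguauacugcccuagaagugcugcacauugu
The opposite arm has another seed, AUCAGCA, in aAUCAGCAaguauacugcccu, and so another set of possible targets.

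The scanner software called 136 to 190 miRNAs detected per array and 1668 on no array. No miRNA spot was saturated, and no arrays were identical (0 pairs). On 6 of the 9 arrays many spots of bright probes in a strip of columns at the left or right edge gave little or no signal, although some spots within the strips kept theirs. Such strips took up 41.1% to 43.8% of the miRNA spots in control, 0% to 53.6% in high fat diet and 0% to 31.1% in metformin arrays, so they were not balanced between groups. The results on miR-34a-5p are therefore given in both of the following readings. The reading with all spots is the mean of a probe's spots without outlier marks. The reading with the strips left out is the median of a probe's spots outside the strips and without non-uniformity marks. In both, intensities were divided by a 75th percentile of their array and put on a log2 scale, so that 0 is that percentile and 1 unit is a doubling. The 4 hepatocyte markers fixed for the check of the tissue, miR-122-5p, miR-192-5p, miR-194-5p and miR-148a-3p, were detected on all 9 arrays.

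Each of the probes for miR-34a-5p was spotted 15 times per array. Before any scaling, the kept spots of the brighter probe had median intensities of 54 to 58.8 in control, 172 to 200 in high fat diet and 106 to 119 in metformin arrays. The group means of these medians were 56.1 ± 2.44, 185 ± 14 and 111 ± 7.23 (SD, n = 3 each). The dimmer probe read 17.8 ± 3.1, 61.7 ± 8.42 and 34.4 ± 0.862 in the same order (SD, n = 3 each). On both probes the 3 groups did not overlap, with metformin between control and high fat diet. Mean local background lay between 16.1 and 20.9 on the 9 arrays and had already been subtracted.

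The strips cut into these probes unevenly. On the first high fat diet array 11 of the 15 spots of the brighter probe lay in the strip, with a median intensity of 5.21, against 184 for the 4 spots kept. The mean of all its spots was 74.9. The second high fat diet array had no strip, and its 15 spots ran from 180 to 230. The third of them kept 13 spots with a median of 172. On the control arrays 8, 12 and 13 spots were kept in order of replicate number, and on the metformin arrays 15, 13 and 15. Among kept spots of the brighter probe the coefficient of variation within an array was 4.07% to 26.5%. The highest value was that of the first high fat diet array, where 1 of the 4 kept spots read 101 and the others 183 to 195. The low spot was the one nearest the strip.

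**Figure D1:**
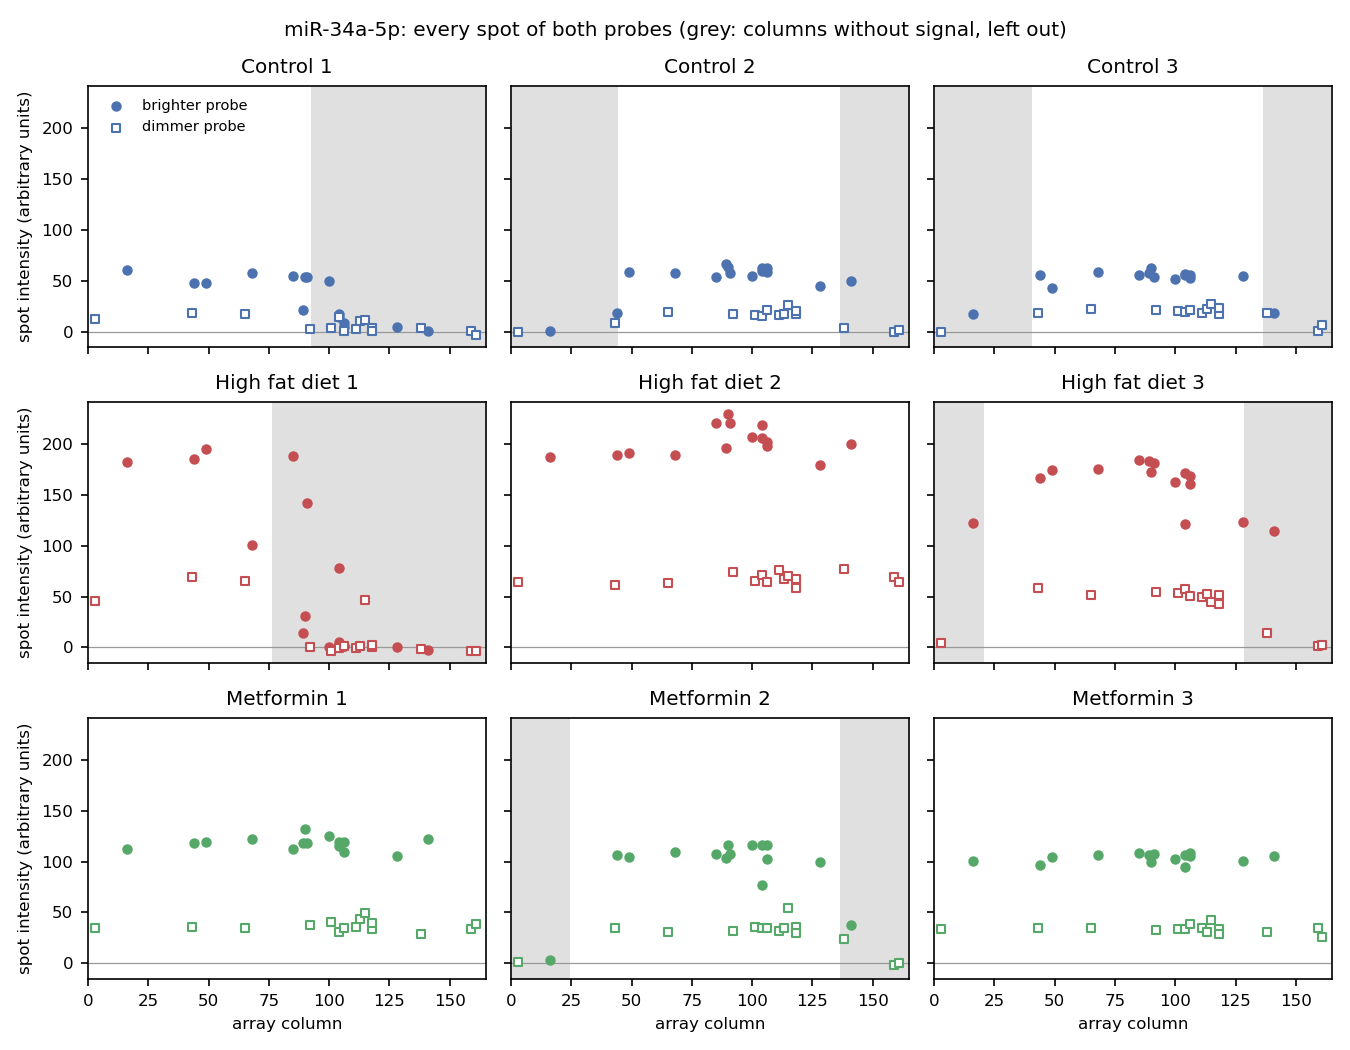
Background-subtracted intensity (arbitrary units) of every spot of both miR-34a-5p probes against its array column, 1 panel per array, with the columns left out in grey. Outside the grey columns the brighter probe (filled circles) lies near 50 in control, near 110 in metformin and, but for a few spots, above both in high fat diet arrays, and inside them many spots drop to about 0.

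A stretch of 32 of the 164 columns, from column 45 to column 76, was kept on all 9 arrays, and 3 miR-34a-5p spots lay within it. These spots compare the groups at the same place on every array, in intensities that were not scaled. The arrays also differed in brightness. Their scaling percentiles with the strips left out were 192.9 to 225.3 in control, 231 to 251.5 in metformin and 221.3 to 323.3 in high fat diet arrays. At column 49 the brighter probe read 42.6 to 59 in control, 104 to 120 in metformin and 175 to 195 in high fat diet arrays. At column 65 the dimmer probe read 16.9 to 22.4, 31.2 to 35.1 and 51.8 to 65.6. At column 68 the brighter probe read 57.4 to 58.4 in control and 106 to 122 in metformin arrays. The high fat diet arrays read 101, 190 and 175 there. The groups stood in the same order at the first and second of these places and did not overlap. At column 68 the spot of the first high fat diet array lay below the metformin arrays.

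After scaling, the brighter probe, which represents the miRNA because its mean over all arrays was the higher, gave the following levels with the strips left out. The control arrays read -1.84, -1.91 and -2.02 (mean -1.92 ± 0.09). The high fat diet arrays read -0.27, -0.48 and -0.91 (mean -0.55 ± 0.33). The metformin arrays read -1.08, -1.10 and -1.17 (mean -1.12 ± 0.04; all SD, n = 3). In order, the lowest level was that of control, then metformin, then high fat diet, and no group overlapped its neighbour. The high fat diet arrays had the widest spread, while those of the other groups lay close together.

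With all spots the picture was less sharp. The control arrays read -2.50, -1.81 and -2.26 (mean -2.19 ± 0.35). The high fat diet arrays read -1.52, -1.15 and -1.38 (mean -1.35 ± 0.19), and the metformin arrays -1.58, -1.36 and -1.73 (mean -1.56 ± 0.18; all SD, n = 3). Control remained below both other groups, the nearest values being -1.81 in control and -1.73 in metformin. High fat diet and metformin overlapped.

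**Figure D2:**
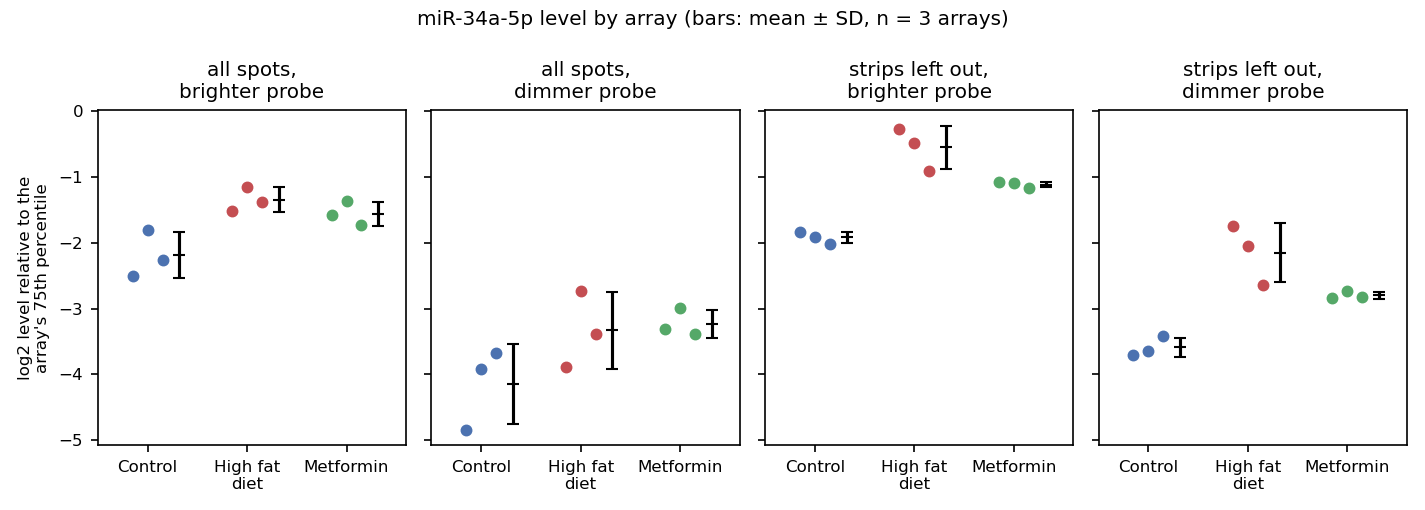
Level of miR-34a-5p on each array (log2, relative to the array's 75th percentile) by group, for both probes and both readings, with bars for the mean ± SD of 3 arrays. With the strips left out the groups do not overlap on either probe; with all spots high fat diet and metformin overlap on both, and on the dimmer probe 1 high fat diet array lies within the control range.

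The dimmer probe kept the order of the groups with the strips left out, at -3.59 ± 0.15 in control, -2.15 ± 0.45 in high fat diet and -2.80 ± 0.05 in metformin (SD, n = 3). It then rested on 3 kept spots on the first high fat diet array. On the first control array 4 were kept, which read 2.2 to 18.5. Of all 15 spots, 4 and 5 on these arrays were well above background. With all spots the dimmer probe read -4.14 ± 0.61, -3.33 ± 0.58 and -3.23 ± 0.21, so that metformin and high fat diet changed places by 0.10. On the first control array it was then at -4.84, which is 3.5% of the scaling percentile, where 9 of its 15 spots had an intensity under 10.

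The first comparison, high fat diet against control, asks which liver miRNAs differ after the fatty diet, and it is the one that chose miR-34a-5p. Without the strips miR-34a-5p was 2.58-fold higher with high fat diet (log2 difference 1.37, SE 0.14), and the next highest of the 143 miRNAs tested differed by 0.53. With all spots it was 1.79-fold higher (0.84, SE 0.20), again the highest, of 139 miRNAs, with the next at 0.57. The dimmer probe gave 1.45 and 0.81. On the brighter probe no high fat diet array fell to the level of any control array in either reading. On the dimmer probe this held with the strips left out, while with all spots the first high fat diet array (-3.88) lay below the third control array (-3.67). As background, a separation upward was seen for 21.7% of tested miRNAs with the strips left out and 3.6% with all spots, and limma called 14% and 6.47% of them in either direction (adjusted p under 0.05). Nothing is read from miR-34a-5p's place in these shares, because this contrast chose it.

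With all spots the median difference of all tested miRNAs was -0.22, and relative to it miR-34a-5p stood at 1.06. With the strips left out that median was 0.03 and miR-34a-5p stood 1.34 above it. The all-spots difference moved with the processing. It was 0.48 with the median over all spots in place of the mean, and 0.33 with normexp background correction. Relative to the median of all miRNAs these were 0.62 and 0.66. On the first high fat diet array the median spot of the brighter probe, at 31, lay inside the strip. The normexp run added an offset of 50, which narrows log2 differences at low intensities. The part of the strip and of the offset in the smaller differences was not tested. A percentile over all probes gave 1.30, and relative to the median of all miRNAs that is again 1.06.

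The second comparison, metformin against high fat diet, asks whether the drug shifts the level in mice on the same diet. miR-34a-5p read without the strips was 1.48-fold lower with metformin (log2 difference -0.56, SE 0.14, 95% interval -0.88 to -0.25 for this miRNA alone). All 3 metformin arrays lay below all 3 high fat diet arrays, as was so for 11.9% of tested miRNAs. Only 1 of the 143 miRNAs had a more negative difference. The difference did not pass after adjustment over all tested miRNAs (adjusted p = 0.126 by limma). In this comparison 1.4% of miRNAs passed, none of them lower (0%).

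With all spots the difference between metformin and high fat diet was -0.21 (SE 0.20, 95% interval -0.66 to 0.24, adjusted p = 0.723 by limma), and the groups overlapped (1.44% of miRNAs lay lower without overlap). None of the 139 miRNAs passed by limma (0%), while 10.8% had an unadjusted p under 0.05. The interval still holds a fall as large as that seen without the strips. The dimmer probe gave -0.65 with the strips left out and 0.10 with all spots. These tests share the high fat diet arrays with the comparison that chose miR-34a-5p and are not independent of that choice. Without the third high fat diet array, which was the lowest of its group, the strip-free difference was -0.74 and passed (adjusted p = 0.00657 by limma). Over all the alternatives tried for it the adjusted p ran from 0.00657 to 0.819.

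The third comparison, metformin against control, sets mice given both the diet and the drug against chow-fed mice, so diet and drug act together in it. Outside the strips miR-34a-5p was 1.75-fold higher in the metformin group (log2 difference 0.80, SE 0.14, 95% interval 0.49 to 1.12) and passed (adjusted p = 0.0143 by limma). It had the highest difference of the 143 miRNAs, of which 1.4% passed, and was the single one that passed as higher (0.699%). The next highest differed by 0.72. All 3 metformin arrays lay above all 3 control arrays, as for 12.6% of tested miRNAs, and the dimmer probe gave 0.79. With all spots miR-34a-5p was 1.55-fold higher (0.63, SE 0.20, 95% interval 0.18 to 1.08) and did not pass (adjusted p = 0.203 by limma, unadjusted p = 0.0104). There 0% of miRNAs passed, 10.8% had an unadjusted p under 0.05, and in 12.2%, miR-34a-5p among them, all metformin arrays lay above control.

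The strip-free call against control was not stable. It was lost when any single metformin array was left out (adjusted p = 0.0702, 0.0985 and 0.0768 by limma, in order of replicate number), with quantile normalization (0.0631), with the row on the slide as a block (0.0548) and with no detection filter (1). The size of the difference stayed between 0.74 and 0.86 in these fits. Of the 12 alternative settings that gave a value the call was kept in 9, and of the 9 fits without a single array in 6. The fit with the row as a block also left out the third control array, which was alone on its slide. On the same arrays without the block the difference was 0.76 (adjusted p = 0.017 by limma). The comparison shares its control arrays with the one that chose miR-34a-5p. Its difference, interval, rank and adjusted p are therefore not independent of that choice, and they are no independent support for the choosing comparison.

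**Figure D3:**
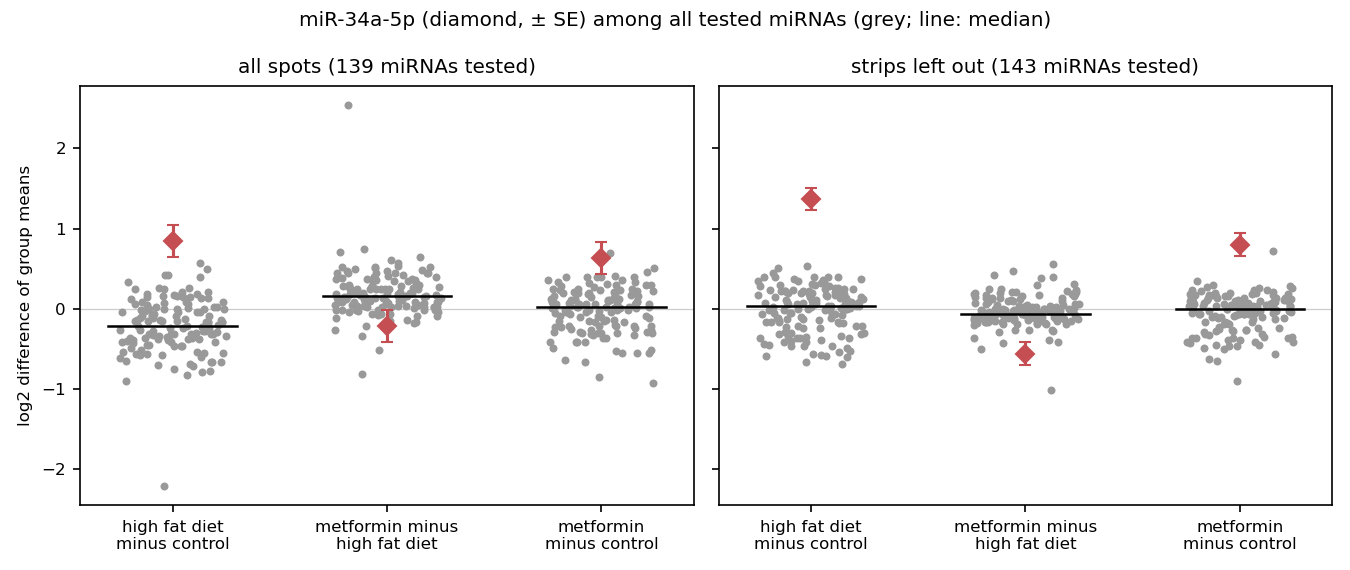
Log2 difference of group means for miR-34a-5p (red diamond, ± SE from limma) among all tested miRNAs (grey points, with their median as a line), for the 3 comparisons and both readings. With the strips left out miR-34a-5p is the highest point in both comparisons with control (1.37 and 0.80), and at -0.56 it is the second lowest in metformin minus high fat diet.

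The arrays' places on the slides were not balanced between groups either. On 1 slide the first row held the 3 high fat diet arrays and 1 metformin array, and the second row held 2 metformin and 2 control arrays. The third control array was alone on slide 2. Within the first row the metformin array read 0.53 below the mean of the high fat diet arrays with the strips left out (difference -0.53) and -0.23 with all spots. Within the second row metformin was above control by 0.74 and 0.61. High fat diet and control shared no row, and metformin arrays in both rows link them. A fit with the row as a block used the arrays of 1 slide only, so the third control array was left out. It gave 1.27 (SE 0.29) for high fat diet minus control with the strips left out and 0.84 (SE 0.43) with all spots. The same arrays without the block gave 1.32 (SE 0.16) and 0.81 (SE 0.24), a description as above.

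The software's own summary, a total signal per miRNA over both probes and all spots, was 7.03, 15.1 and 16.1 on the control arrays. For high fat diet it was 19, 57.4 and 42.1, and for metformin 32.6, 29.8 and 28.9. The software called miR-34a-5p detected on all 9. Its low value on the first high fat diet array includes the spots inside the strip. The authors' deposited table holds the log2 of this total plus 1 constant per array, from -2.35 to -0.71. The sources used here do not say how these constants were chosen. The medians of the table's columns ran from -5.67 to -4.03. With 136 to 190 of 1881 miRNAs called detected per array, these medians fall on undetected miRNAs. They do not show how well the detected ones were aligned. In that table miR-34a-5p stood at 2.46 ± 0.43 in control, 3.45 ± 0.38 in high fat diet and 3.02 ± 0.35 in metformin (SD, n = 3). All 3 high fat diet values (3.54, 3.78 and 3.04) lay above the control values (2.01, 2.86 and 2.50), while the metformin values (2.91, 3.41 and 2.74) overlapped both groups.

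The seed relatives were looked for on the same arrays. miR-34b-5p and miR-34c-5p come from 1 shared transcript and, with the miR-449 genes, are known for cells that carry motile cilia. By the software's call miR-34b-5p, miR-34c-5p, miR-449a-5p, miR-449b and miR-449c-5p were each detected on 0 of 9 arrays. Outside the strips, 0 of 192 spots of miR-34b-5p and 0 of 191 spots of miR-34c-5p were well above background over all arrays. For miR-449a-5p it was 2 of 179, for miR-449b 0 of 198 and for miR-449c-5p 0 of 196. For miR-34a-5p it was 202 of 203. Median intensities of the undetected family members stayed between -1.36 and 2.59 on every array, around 0 after background subtraction. Within the family miR-34a-5p alone was read above background on these 9 arrays, and levels of the others below the array's limit cannot be seen.

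The opposite arms miR-34a-3p, miR-34b-3p and miR-34c-3p were likewise detected on 0 of 9 arrays, with 0 of 198, 0 of 192 and 1 of 212 kept spots well above background. For miR-34a-3p, cut from the same hairpin as miR-34a-5p, no diet or drug comparison could be made.

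**Figure D4:**
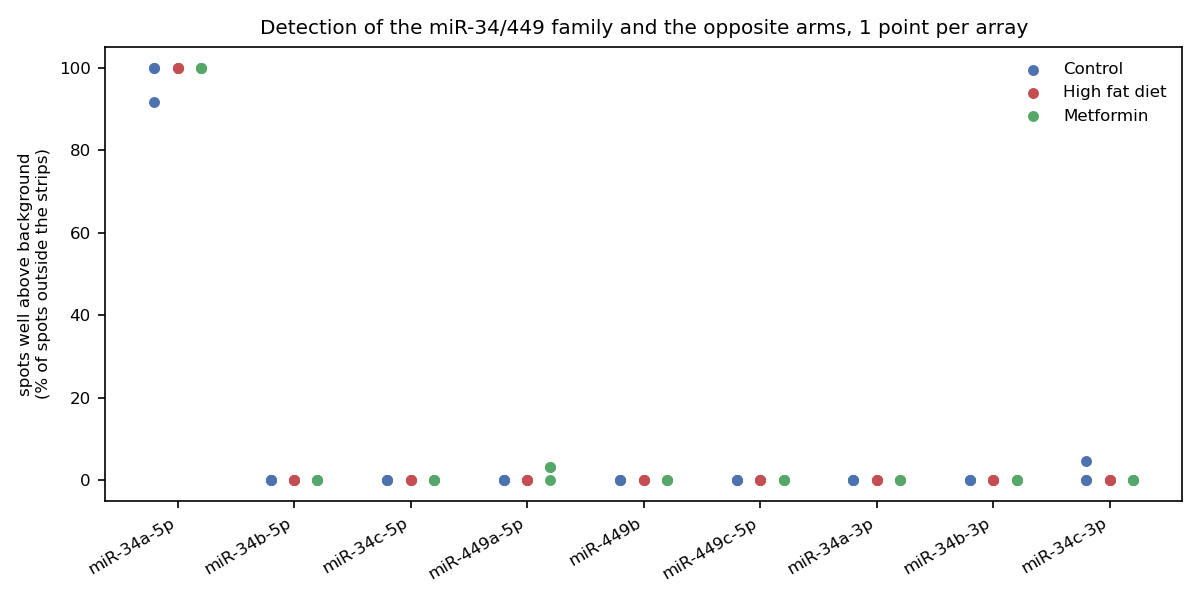
Percentage of spots outside the strips that were well above background, 1 point per array, for miR-34a-5p, its seed relatives and the opposite hairpin arms. miR-34a-5p stands at 100% on 8 arrays and above 90% on the ninth, and every other miRNA shown stays at or close to 0%.

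Other miRNAs tied to p53 were described beside miR-34a-5p. The list held 14 names whose transcription or processing is linked to p53, of which 13 were on the array and 5 besides miR-34a-5p were detected well enough to be tested. miR-192-5p and miR-194-5p are abundant in hepatocytes, miR-15a-5p and miR-16-5p restrain the cell cycle, and miR-107-3p is linked to insulin sensitivity in liver. None of the 5 passed in any comparison in either reading. Among all tested miRNAs 14% passed for high fat diet minus control and 1.4% in each metformin comparison with the strips left out, and 6.47%, 0% and 0% with all spots, so few calls would fall among any 5 miRNAs. Their strip-free high fat diet differences ran from 0.01 to 0.22, with a median of 0.08 against 0.03 for all tested miRNAs. With all spots their median was -0.23, against -0.22. Of these miRNAs miR-194-5p had the highest strip-free diet difference, 0.22 (SE 0.12, adjusted p = 0.216 by limma). The strip-free difference of miR-107-3p was 0.20 (SE 0.10) with high fat diet and 0.23 (SE 0.10) with metformin, both against control, and neither passed (adjusted p = 0.172 and 0.189 by limma). miR-192-5p differed by 0.08 in both. The remaining listed miRNAs on the array, among them miR-215-5p, miR-143-3p, miR-145a-5p, miR-200c-3p and miR-141-3p, were detected on 0 arrays.

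A further list held 14 miRNAs published as repressors of Sirt1. All 14 were on the array and 4 besides miR-34a-5p could be tested, namely miR-22-3p, miR-93-5p, miR-195a-5p and miR-199a-5p. None of the 4 passed in any comparison in either reading, against the same shares. Strip-free high fat diet differences ran from 0.02 to 0.26, with a median of 0.14 against 0.03 for all tested miRNAs. Metformin minus high fat diet ran from -0.19 to 0.02, with a median of -0.07 against -0.06 for all tested miRNAs. The most different was miR-199a-5p, at 0.26 (SE 0.10, adjusted p = 0.0959 by limma) with high fat diet and -0.19 (SE 0.10, adjusted p = 0.435) between metformin and high fat diet. miR-195a-5p was at 0.20 (SE 0.09) with the diet, and miR-22-3p at 0.09 (SE 0.09). With all spots the diet differences of the 4 ran from -0.15 to 0.25, with a median of 0.16 against -0.22 for all tested miRNAs.

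**Figure D5:**
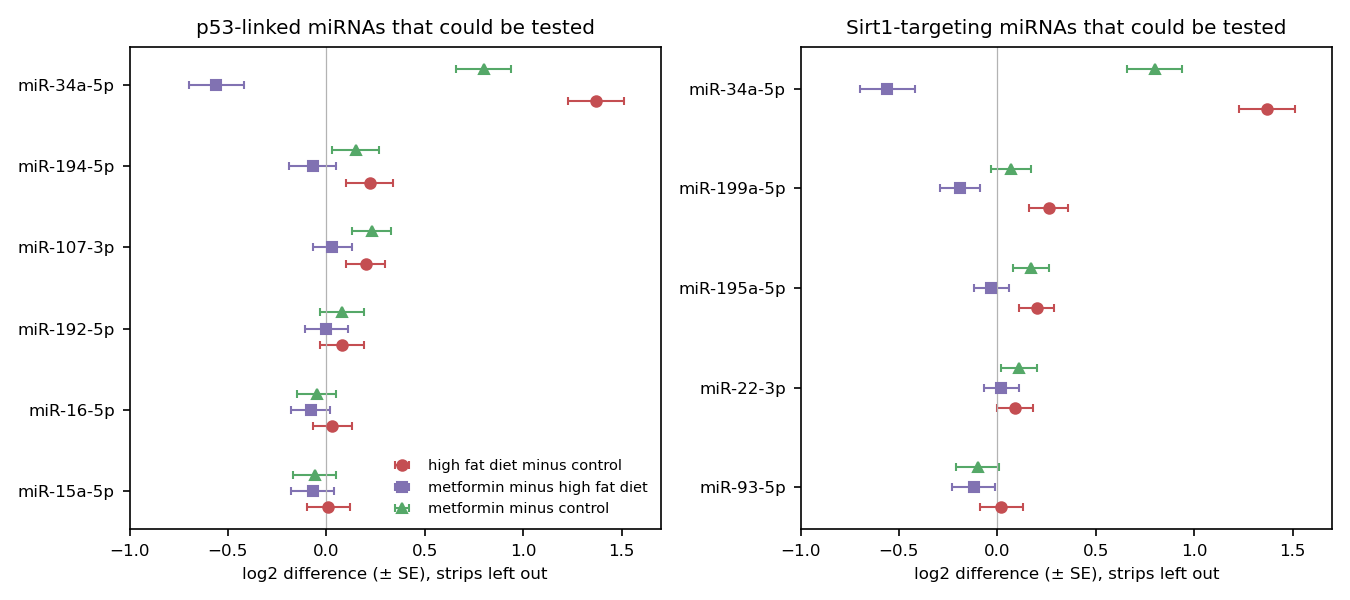
Log2 differences (± SE from limma, strips left out) of the p53-linked and the Sirt1-targeting miRNAs that could be tested, for the 3 comparisons. miR-34a-5p lies at 1.37, 0.80 and -0.56, and all the other miRNAs shown lie between -0.19 and 0.26.

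Some miRNAs followed miR-34a-5p across the 9 arrays. With the strips left out the most alike by Pearson's r were miR-342-3p (r = 0.90), miR-423-5p (0.90), miR-185-5p (0.87), miR-199a-3p (0.87) and miR-425-5p (0.86), against a median of 0.10 over the 142 other miRNAs. The 9 points share 3 groups, and the likeness was mostly one of group means. After the group means were removed r was 0.10, 0.27, -0.08, -0.51 and 0.21 in the same order. Their own diet differences were smaller than that of miR-34a-5p, at 0.39, 0.25, 0.53, 0.31 and 0.37. The most opposed were miR-3077-5p (-0.90), miR-1904 (-0.88) and miR-3102-5p (-0.86), with diet differences of -0.58, -0.59 and -0.60. With the group means removed their r was -0.42, -0.68 and 0.32, and miR-3077-5p was detected on only 7 arrays.

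With all spots the most alike were miR-199a-5p (0.74), miR-29c-3p (0.72), miR-342-3p (0.61), miR-185-5p (0.54) and miR-101c (0.54). The most opposed were miR-3960 (-0.88), miR-6538 (-0.86) and miR-6931-5p (-0.84). With the group means removed their r was -0.54, -0.55 and -0.61. After the group means were removed r for the 5 most alike was 0.66, 0.10, 0.10, -0.39 and -0.20, and miR-199a-5p was detected on only 5 arrays. miR-342-3p and miR-185-5p were among the 5 most alike in both readings, and none of the opposed ones was shared.

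Markers of other liver cells were set beside these levels. Of 6 stellate and mesenchymal markers 3 could be tested, miR-199a-3p, miR-199a-5p and miR-199b-5p, and with the strips left out all 3 were higher with high fat diet (0.31, 0.26 and 0.44). Of these miR-199a-3p passed (SE 0.08, adjusted p = 0.0301 by limma), where 14% of all tested miRNAs passed. Their summed level ran from -1.71 to -1.67 in control, -1.58 to -1.52 in metformin and -1.47 to -1.23 in high fat diet arrays (log2), which is the order that miR-34a-5p took. As background, 21.7% of tested miRNAs lay higher without overlap in high fat diet than in control. Between metformin and high fat diet 11.9% lay lower without overlap. With all spots the ranges were -2.63 to -2.12, -2.30 to -2.02 and -2.09 to -1.72, so that metformin overlapped both other groups, and none of the 3 passed. Between metformin and high fat diet miR-199a-3p, miR-199a-5p and miR-199b-5p then differed by -0.22, 0.14 and -0.34. Of the other markers in that list miR-143-3p and miR-145a-5p were detected on 0 arrays and miR-214-3p on 1. The part of these cells in the miR-34a-5p result was not tested.

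Of 4 erythroid markers miR-451a, a red cell miRNA, could be tested. With the strips left out its level ran from -1.57 to -0.13 in control, -0.99 to -0.53 in high fat diet and -1.94 to -1.72 in metformin arrays. Between metformin and high fat diet it differed by -1.01 (SE 0.29, adjusted p = 0.158 by limma), and with all spots by -0.82 (SE 0.31, adjusted p = 0.383 by limma). The other erythroid markers were detected on at most 1 array, and the part of blood in the miR-34a-5p difference was not tested. The 3 leukocyte markers that could be tested, of 6, had diet differences from -0.13 to 0.15 with the strips left out and from -0.57 to -0.26 with all spots. The endothelial miR-126a-3p was at 0.18 and -0.42, and none of these passed. Hepatocyte markers, 4 of 4 tested, had summed levels of 6.70 to 6.87 in control, 6.61 to 6.78 in high fat diet and 6.74 to 6.91 in metformin arrays in the strip-free reading. Their sums over all spots were 6.44 to 6.74, 5.86 to 6.26 and 6.35 to 6.48, so that high fat diet lay below both other groups, and miR-122-5p, the most abundant hepatocyte miRNA, differed by -0.58 between high fat diet and control (SE 0.17, adjusted p = 0.0682 by limma). No hepatocyte marker passed in either reading, and their part in the miR-34a-5p result was not tested. Of 5 biliary markers none could be tested, and miR-200b-3p was detected on 2 arrays. All 5 multiciliated markers, which are the seed relatives of miR-34a-5p, were detected on 0 arrays.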

How the data were processed

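Each of the 9 scanner files holds spot intensity, background-subtracted and not scaled between arrays, from Agilent Feature Extraction 11.5.1.1 per the file headers; the submitters' processing notes give version 10.7. The deposited value table holds log2 values: the total signal per miRNA shifted by a constant for each array, checked against the scanner files, where 0 to 6 miRNAs per array departed by over 0.001. The headers name the build mm9, and coordinates printed here come with the RefSeq sequences.

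A probe was detected where over a share of 0.5 of its spots were well above background. Each array was scaled to a 75th percentile taken from 124 probes that every array detected (187 with the strips left out, where 425 probes with under 3 kept spots were dropped). Before log2, a floor was set at the detected values' 1st percentile. A strip was followed inward in steps of 4 columns while at least 10% of the spots of bright probes (80th percentile over an intensity of 100) read under 50% of that level. A miRNA was tested where some group detected it on each of its 3 arrays, and was represented by its probe with the highest mean.

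limma 3.58.1 in R 4.3.3 (with version 1.17.8 of the package data.table) fitted 3 group means over all 9 arrays, two-sided, with Benjamini-Hochberg adjustment over all miRNAs tested. The limma fit was tried on simulated normal values with planted shifts, and the strip search on an array with planted strips. Those strips held no signal anywhere, unlike the ones seen here, and the other steps were not simulated. The number of arrays limits the precision: with 3 arrays a side, 0.1 is the smallest p an exact permutation test allows.

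The members, the strip-free reading and the lists were chosen with earlier results of these data known. Named were the family and opposite arms, the 5 most and 3 least alike miRNAs in each reading, and of each list any member that passed, otherwise the 3 with the largest differences; further list members were named after their values were seen. The deviations of same-numbered samples correlated over 0.1 in 7 of 9 pairs with all spots, among them every pair with a control sample, and in 3 of 9 with the strips left out. Since not every pair did, replicate numbers were not treated as pairs, and the fits with them as a block are given in the closing section. Normexp was run on the median spot signal with an offset of 50, a change made after seeing the files.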

Additional observations from a re-analysis of the deposited data

How the results depend on the processing

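High fat diet minus control for miR-34a-5p kept its sign in all 24 alternatives with all spots (0.33 to 1.30) and all 21 with the strips left out (1.25 to 1.91). It moved by more than the spread between arrays with the median over all spots (0.48), normexp (0.33) and a percentile over all probes (1.30; 1.91 with the strips left out), and with all spots also without the second control array (1.16). Leaving out 1 array gave 0.74 to 1.16 and 1.25 to 1.55. The percentile over all probes shifted all miRNAs with it: relative to their median the strip-free difference was 1.35. Relative to that median the all-spots difference was 0.62 with the median over spots and 0.66 with normexp. Metformin minus high fat diet changed sign with all spots under the median over spots (0.20, adjusted p = 0.877 by limma) and with the dimmer probe (0.10, adjusted p = 0.838); the cause was not tested. Leaving out 1 array gave -0.38 to -0.11, and -0.74 to -0.42 with the strips left out, where the call was gained without the third high fat diet array (-0.74). Metformin minus control with the strips left out (0.80) was 0.80 with no detection filter (adjusted p = 1), 0.86 with quantile normalization (0.0631) and 0.74 with the row as a block (0.0548), none past the threshold; leaving out 1 array gave 0.76 to 0.93, with adjusted p from 0.00134 to 0.0985. Over all alternatives its adjusted p ran from 6.94e-05 to 1. With no filter 1879 miRNAs were tested in place of 143. The fit with the row as a block left out the third control array. With the replicate number as a block, the strip-free differences were 1.37, -0.56 (adjusted p = 0.0696) and 0.80 (adjusted p = 0.00726), and with all spots 0.84, -0.21 (0.578) and 0.63 (0.128), so the block changed no call for miR-34a-5p. Counts of called miRNAs were less stable. High fat diet minus control gave 0 to 12 with all spots (9 as reported) and 0 to 40 with the strips left out (20 as reported); leaving out 1 array alone gave 0 to 3 and 6 to 40. Metformin minus control gave 0 to 98 with the strips left out (2 as reported), the 98 with a percentile over all probes. The other counts were 0 to 3 for metformin minus high fat diet with the strips left out (2 as reported), 0 to 4 with all spots (0 as reported) and 0 to 2 for metformin minus control with all spots (0 as reported). Restricting both probes to the columns kept on all 9 arrays left fewer than 3 spots per probe, so that alternative gave no value for miR-34a-5p.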
